A study of Mus musculus with 8 samples.

Results

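The genes of the orexin and melanin-concentrating hormone (MCH) neurons were described in the hypothalamus (HT) of male C3H/HeN mice. The 8 genes were *Hcrt*, *Pmch*, *Lhx9*, *Hcrtr1*, *Hcrtr2*, *Mchr1*, *Tacr3* and *Nptx2*, and all array probes that carry one of these gene names were taken, which gave 13 of 55681 probes and 8 of 27443 gene names. They were chosen from earlier results on the same 8 arrays, in which the level of *Hcrt* had been seen. Their differences between groups and their correlations are therefore given as a description, and no test is offered as support for them.

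The arrays came from 4 control (Ctrl) mice and 4 mice of the maternal separation (MS) group, named Stress in the labels. MS pups were taken from their dam every day from postnatal day (PND) 2 to 14 while the dam went through a changing series of stressors, and control pups stayed with an undisturbed dam. All pups were weaned at PND 21. As adults, the males of both groups had gone through operant tests for palatable food and were fasted before the HT was dissected. Both groups thus share the testing and the fast, but in the paper MS mice of this strain pressed the active lever more in some tests. These were the random-ratio schedules and the progressive ratio up to its cut-off, where a reward takes several presses. The paper found no effect of MS when each press gave a reward, after prefeeding, or with free chow as a choice. For the nucleus accumbens, the paper cautions that the fast may act differently in MS mice. It adds that exposure to the palatable food may have been unequal. From each mouse, 200 ng of total RNA was labeled with Cy3 and hybridized to 1 array. A sample is thus the whole HT of 1 mouse, in which the orexin and MCH cells are a small minority. Fewer cells of a type and less RNA per cell cannot be told apart in such tissue.

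Orexin (hypocretin) and MCH are peptides made by separate but intermingled neurons of the lateral hypothalamus. Both kinds of neuron project to most of the brain. Orexin neurons maintain wakefulness and drive arousal and the seeking of reward, and their loss is the cause of narcolepsy with cataplexy. MCH neurons promote feeding and sleep, and rapid eye movement sleep in particular. *Hcrt* encodes the precursor of both orexins, and *Hcrtr1* and *Hcrtr2* encode their G protein-coupled receptors. *Pmch* encodes the precursor of MCH, whose receptor in the mouse is encoded by *Mchr1*. *Lhx9* is a LIM-homeodomain transcription factor of orexin neurons, *Tacr3* encodes the neurokinin B receptor, and *Nptx2* encodes a neuronal pentraxin that gathers glutamate receptors at synapses. MCH neurons carry *Tacr3* and orexin neurons carry *Nptx2*.

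Levels of *Hcrt* and *Pmch* rest on a single bright probe each, of 60 bases. Stretches of 30 bases of both *Hcrt* probes and of the *Pmch* probe are shown, since they fix which part of each transcript was read. Capitals mark AATAAA, the hexamer that precedes the end of most mRNAs, and 1 of the 13 probes held it.
Hcrt, bright probe: ttggtaaatggcAATAAAgacgattctctg
Hcrt, dim probe: acctacacagagaggtccaatacaagggca
Pmch: tgtctgttttaaaaggacctggttaagata
On the build mm9, which the array files use, the bright *Hcrt* probe lay at chr11:100623007-100623066 on the minus strand, and the file assigns it to the RefSeq mRNA of *Hcrt*. The dim *Hcrt* probe lay at chr11:100622484-100622543, 463 bases farther downstream, and stands for an Ensembl transcript. The *Pmch* probe lay at chr10:87555031-87555090 on the plus strand. The files do not say in which exon or UTR a probe lies.

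For 7 of the 8 genes the RefSeq promoter table (GRCm38.p6) held 9 starts in all, and none was listed for *Nptx2*. The 250 bases before the start are shown for the 2 peptide genes, whose levels moved together over the mice. Capitals mark TATAAA, the core of the TATA box.
Hcrt, chr11:100762932-100763181, minus strand: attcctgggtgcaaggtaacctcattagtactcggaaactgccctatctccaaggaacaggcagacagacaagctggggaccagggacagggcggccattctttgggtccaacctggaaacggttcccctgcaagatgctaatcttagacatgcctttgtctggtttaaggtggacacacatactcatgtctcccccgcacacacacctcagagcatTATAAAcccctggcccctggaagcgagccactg
Pmch, chr10:88090822-88091071, plus strand: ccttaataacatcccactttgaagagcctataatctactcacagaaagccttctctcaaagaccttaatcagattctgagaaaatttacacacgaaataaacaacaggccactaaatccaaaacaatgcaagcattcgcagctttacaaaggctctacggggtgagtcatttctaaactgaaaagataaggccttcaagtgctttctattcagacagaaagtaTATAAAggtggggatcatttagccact
TATAAA began 33 bases before the start in *Hcrt* and 27 bases before it in *Pmch*. Searched on both strands, it was also present in the window of *Tacr3*, 29 bases before the start, and in 12.4% of all 32851 windows of this length. TAATTA, a sequence that LIM-homeodomain factors bind, was in 0 of the 9 windows of these genes and in 4.84% of all windows. The shorter TAAT, which TAATTA contains, occurred 3 times in the *Hcrt* window and 3 times in that of *Pmch*, and 54.9% of all windows held it. In the *Hcrt* window, 1 of them, on the opposite strand, overlaps TATAAA.

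All values below are log2 signals relative to the 75th percentile of the array, so that 0 marks that percentile. This scale allows a probe to be compared between mice but not with another probe. Of the 13 probes, 11 were well above background on at least 4 arrays and were tested, and they covered all 8 genes. Each array had 61.2% to 71.1% of its probes well above background. The 75th percentile of the signal was 499 in MS 7.6 and 751 to 902 in the other mice. Of 10 marker genes of the HT, 9 were above background on all 8 arrays, while *Otp* was so on 4. So were 5 of 5 tested markers of the pituitary and 6 of 6 of the striatum. Presence above background therefore does not check the dissection. A single slide held the 8 arrays, and each of its 2 rows carried 2 mice of either group. Mice go by their numbers in the labels (8.2, 5.3). Control mice 8.2, 8.4 and 8.5 share the number before the dot, as do MS mice 7.2, 7.1 and 7.6. What that number stands for, and which mice were littermates, is not stated. Mice of a group may therefore not be independent, and the intervals measure the spread between these mice only.

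*Hcrt* differed between mice more than almost any other gene of the HT. Its level was 6.53, 6.65, 5.65 and 5.51 in control mice 8.2, 8.4, 6.2 and 8.5. In MS mice 5.3, 7.2, 7.1 and 7.6 it was 3.46, 3.54, 5.94 and 5.62. MS 5.3 and MS 7.2 thus stood far below every other mouse, with a gap of 1.97 on the log2 scale to the next one, whereas MS 7.1 and MS 7.6 lay inside the range of the controls. The groups overlapped. The highest mouse had 9.14 times the signal of the lowest, and the SD over the 8 mice, 1.22, exceeded that of 99.6% of the tested probes, whose median SD was 0.137. Within groups, the highest signal was 2.21 times the lowest in control mice and 5.55 times in MS mice.

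**Figure D1:**
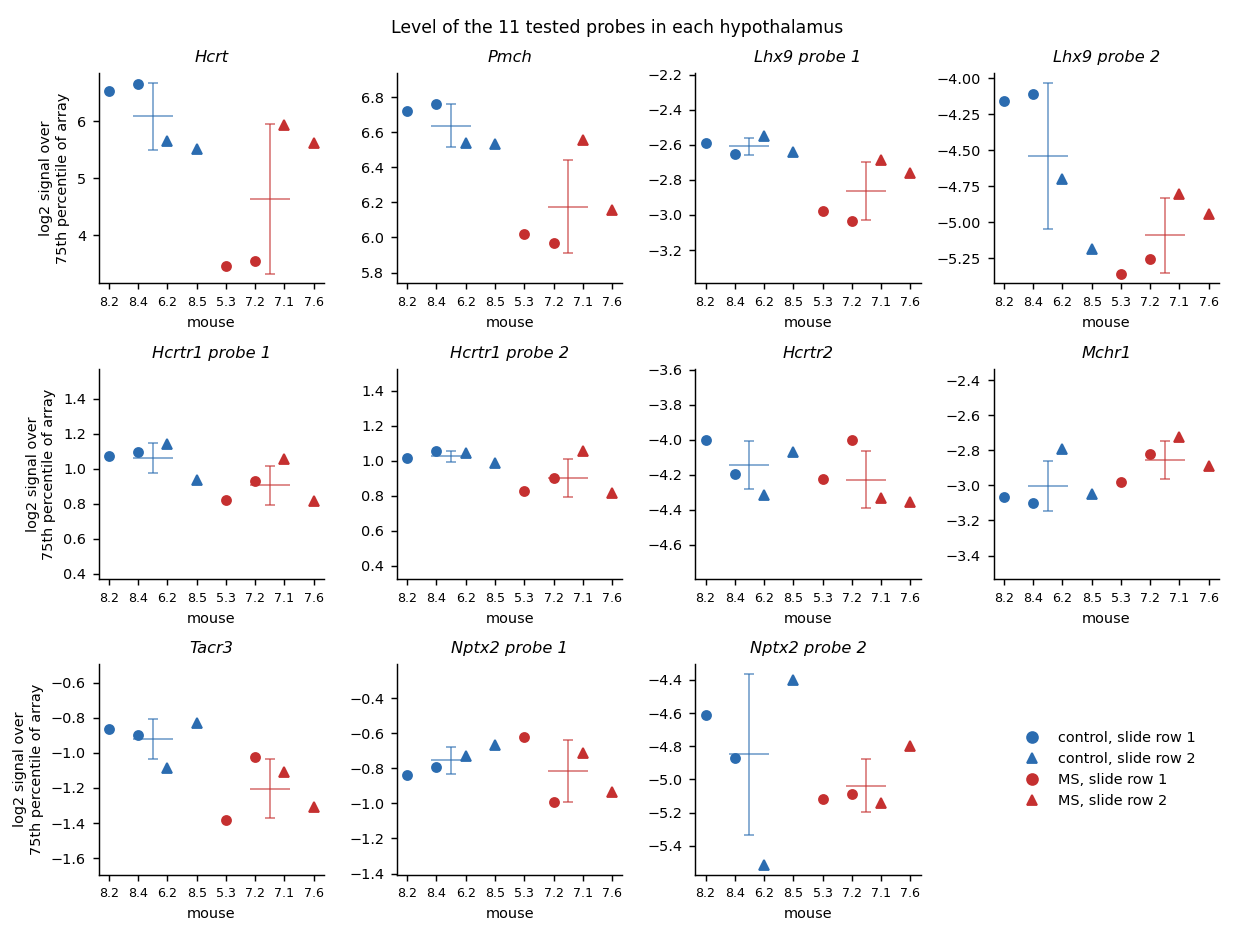
Log2 signal over the 75th percentile of the array (y axis) of the 11 tested probes in each mouse (x axis), with control mice in blue, MS mice in red, circles for slide row 1 and triangles for slide row 2; the lines show the mean and SD of each group. *Hcrt* is at 3.46 and 3.54 in MS 5.3 and MS 7.2 and between 5.51 and 6.65 in the other mice, and the y axes differ in range.

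The mean of *Hcrt* in control mice was 6.09 ± 0.59 (SD, n = 4), and that in the MS group was 4.64 ± 1.32 (SD, n = 4). The difference, MS minus control, was -1.45 on the log2 scale (SE 0.62, 95% interval -2.87 to -0.02), or 2.73-fold lower in the MS group. It lay in 1 row of the slide. In row 1, which held both low mice, the difference was -3.09 (8.53-fold lower in MS mice), whereas in row 2 it was 0.20, in the other direction. With 2 mice against 2 in a row, the rows cannot be told apart from the mice they held. The spots were bright in all mice, with processed intensities of 8931 in MS 5.3 and 10477 in MS 7.2 against 81375 in control 8.4, and 0 spots on the arrays were saturated. The dim *Hcrt* probe was above background in 1 control mouse and in 0 MS mice, and gives no fold.

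*Pmch* was also lowest in the same mice, but over a much smaller range. It was 6.72, 6.76, 6.54 and 6.53 in control mice 8.2, 8.4, 6.2 and 8.5, and 6.02, 5.97, 6.56 and 6.16 in MS mice 5.3, 7.2, 7.1 and 7.6. Of the MS mice, 7.1 lay among the controls, and 7.6 fell between the controls and the 2 lowest mice. Its mean of 6.64 ± 0.12 (SD, n = 4) in control mice stood against 6.18 ± 0.27 (SD, n = 4) in the MS group, a difference of -0.46 (SE 0.13, 95% interval -0.77 to -0.16), or 1.38-fold. It was -0.75 in slide row 1 and -0.18 in row 2.

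*Lhx9* was read by 3 probes, all of them dim. The brightest (chr1:140721909-140721968, minus strand) was -2.59, -2.65, -2.55 and -2.64 in control mice 8.2, 8.4, 6.2 and 8.5. Its level was -2.98, -3.03, -2.68 and -2.76 in MS mice 5.3, 7.2, 7.1 and 7.6. Every MS mouse lay below every control mouse, although the gap between MS 7.1 and the lowest control was small. This was the sole tested probe of the 8 genes without overlap, and 1.24% of all 37313 tested probes had every MS mouse below every control mouse. The mean difference was -0.26 (SE 0.09, 95% interval -0.46 to -0.05), and normexp background correction made it -0.13. The other tested probe (chr1:140729280-140729339) was above background on 6 arrays, with -4.16, -4.11, -4.70 and -5.19 in the control mice and -5.36, -5.25, -4.81 and -4.94 in the MS mice, in the same order. Here control 8.5 lay among the MS mice, and the difference of -0.55 (SE 0.25) was -1.17 in row 1 and 0.07 in row 2. Under normexp background correction it was -0.09, and in the authors' table -0.20. The third probe was above background in 2 control mice and 0 MS mice, and gives no fold.

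The orexin receptors showed small differences. *Hcrtr1*, the receptor that prefers orexin A, was read by a pair of probes that share 52 of their 60 bases and are not independent. The first gave 1.07, 1.1, 1.14 and 0.94 in control mice 8.2, 8.4, 6.2 and 8.5, and 0.82, 0.93, 1.05 and 0.82 in MS mice 5.3, 7.2, 7.1 and 7.6. Of the MS mice, 7.1 alone lay above a control, and the difference was -0.16 (SE 0.08, 95% interval -0.33 to 0.02), against -0.13 (SE 0.07) by the second. *Hcrtr2*, the receptor of both orexins and the one linked to wakefulness, ranged from -4.31 to -4.0 in control mice and from -4.35 to -4.0 in MS mice. Its groups overlapped almost fully, with a difference of -0.08 (SE 0.10, 95% interval -0.31 to 0.15).

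*Mchr1* was the sole gene of the 8 with a higher mean in MS mice. It was -3.06, -3.10, -2.79 and -3.05 in control mice 8.2, 8.4, 6.2 and 8.5, and -2.98, -2.82, -2.72 and -2.89 in MS mice 5.3, 7.2, 7.1 and 7.6. Without control 6.2, which lay among the MS mice, the groups would not overlap. The difference was 0.15 (SE 0.09, 95% interval -0.06 to 0.35).

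*Tacr3* was -0.87, -0.90, -1.08 and -0.83 in control mice 8.2, 8.4, 6.2 and 8.5. In MS mice 5.3, 7.2, 7.1 and 7.6 it was -1.38, -1.02, -1.11 and -1.31. The lowest mice were MS 5.3 and MS 7.6, and of the MS mice 7.2 alone passed a control, so its order differed from that of *Hcrt*. The difference of -0.29 (SE 0.10, 95% interval -0.51 to -0.06) was alike in both rows of the slide, at -0.32 in row 1 and -0.25 in row 2. *Nptx2* ranged from -0.84 to -0.66 in control mice and from -0.99 to -0.62 in MS mice by its bright probe, with a difference of -0.06 (SE 0.09). Its dim probe, 118 bases upstream, gave -0.19 (SE 0.22), and the groups overlapped by both. The value of the dim probe was -0.41 without control 6.2, -0.04 without control 8.5 and 0.01 under normexp background correction.

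**Figure D2:**
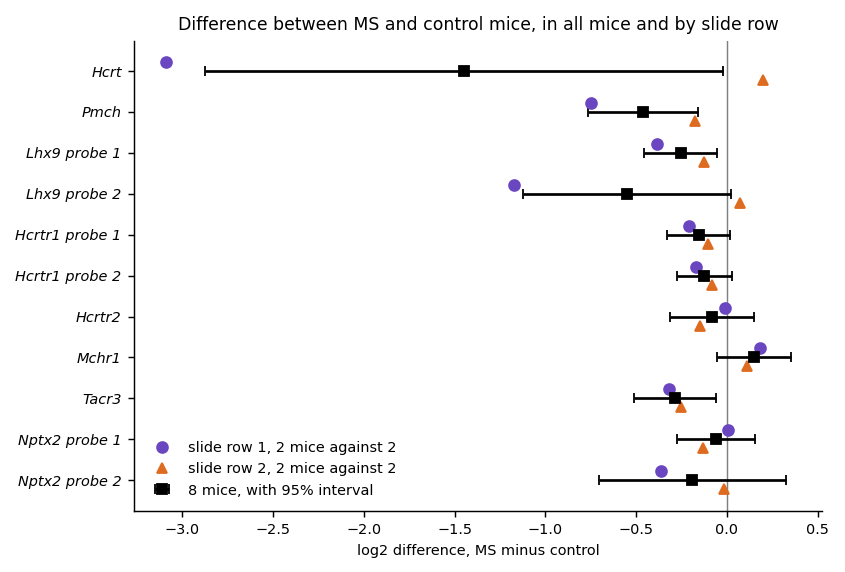
Log2 difference between MS and control mice (x axis) for the 11 tested probes (y axis), with the 95% interval over 8 mice as black squares with bars, slide row 1 alone as circles and row 2 alone as triangles. *Hcrt* is at -3.09 in row 1 and 0.20 in row 2, and *Tacr3* at -0.32 and -0.25.

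In all, 10 of the 11 tested probes were lower on average in MS mice and 1 was higher, with a median difference of -0.19 against -0.0012 over all tested probes. By limma, 0 of the 11 probes passed an adjusted p of 0.05 (adjusted p = 0.989 for each), as did 0% of all tested probes, where the smallest adjusted p was 0.135. At an unadjusted p under 0.05, 4 of the 11 were lower (*Hcrt*, *Pmch*, the brightest *Lhx9* probe and *Tacr3*) and 0 were higher, against 2.4% of all tested probes that were lower and 1% that were higher. The genes were chosen with these differences in view, and nothing is read from the counts. In row 1, 9 of the 11 probes were lower in MS mice, and in row 2, 8 were.

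How the genes co-varied was described by Pearson's r over the 8 mice, with 1 point per mouse. Both values of a point come from the same array, dissection and labeling, and no p is given. Since MS 5.3 and MS 7.2 stood apart in *Hcrt*, r was also taken over the other 6 mice. *Hcrt* and *Pmch* followed the same order of mice, with r = 0.91 (Spearman's rho 0.95) over 8 mice, 0.87 after the group means were subtracted and 0.74 over the other 6. Among 37295 probes, *Pmch* ranked 21st from the top by r with *Hcrt*. Control 8.4 and control 8.2 were highest in both genes and MS 7.1 came next, so that the 2 low mice did not make up the whole of the shared order. MS 7.6 departed most from it, and r was 0.99 without that mouse.

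**Figure D3:**
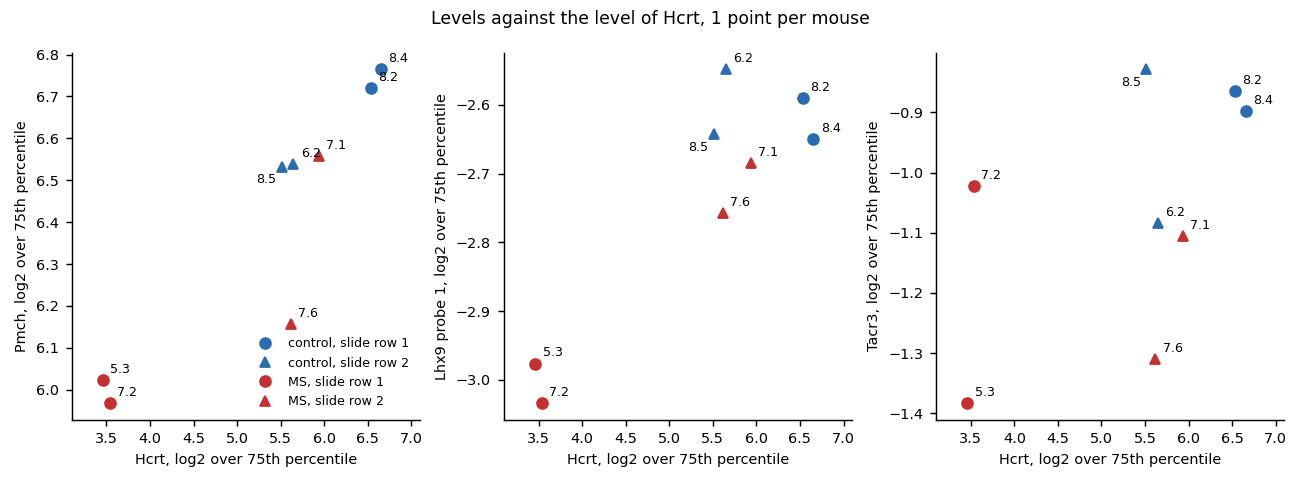
Level of *Pmch*, *Lhx9* (brightest probe) and *Tacr3* (y axes) against that of *Hcrt* (x axis), each a log2 signal over the 75th percentile of the array, with 1 labeled point per mouse, control mice in blue and MS mice in red. MS 5.3 and MS 7.2 lie apart at the left, *Pmch* follows *Hcrt* among the other mice except for MS 7.6, and *Lhx9* shows no such order there.

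*Lhx9* went with *Hcrt* mainly through the same 2 mice by its brightest probe, with r = 0.90 over 8 mice but 0.20 over the other 6. Its dimmer probe gave r = 0.85 over 8 mice and 0.95 over 6. The 2 probes therefore differ on whether *Lhx9* followed *Hcrt* among the other mice. With *Pmch*, r was 0.90 for the brightest and 0.83 for the dimmer probe.

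*Hcrtr1* was closer to *Pmch* (r = 0.81 and 0.88 for its 2 probes) than to *Hcrt* (r = 0.65 and 0.69), without a test of that difference. It kept r = 0.82 and 0.88 with *Pmch* without the 2 mice lowest in *Pmch*. *Tacr3* reached 0.69 with *Pmch* and 0.53 with *Hcrt*, but 0.24 and 0.10 after the group means were subtracted, so over the 8 mice its correlation lay largely between the groups. Without MS 5.3 and MS 7.2, r was 0.82 with *Pmch* and 0.45 with *Hcrt*, so these values depend on the mice used. *Hcrtr2* (r = -0.17 with *Hcrt*), *Mchr1* (-0.28) and *Nptx2* (0.03 and 0.31) did not follow *Hcrt* over these mice. Of the 55 pairs of tested probes, 38 had r above 0 and 23 had r above 0.5.

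**Figure D4:**
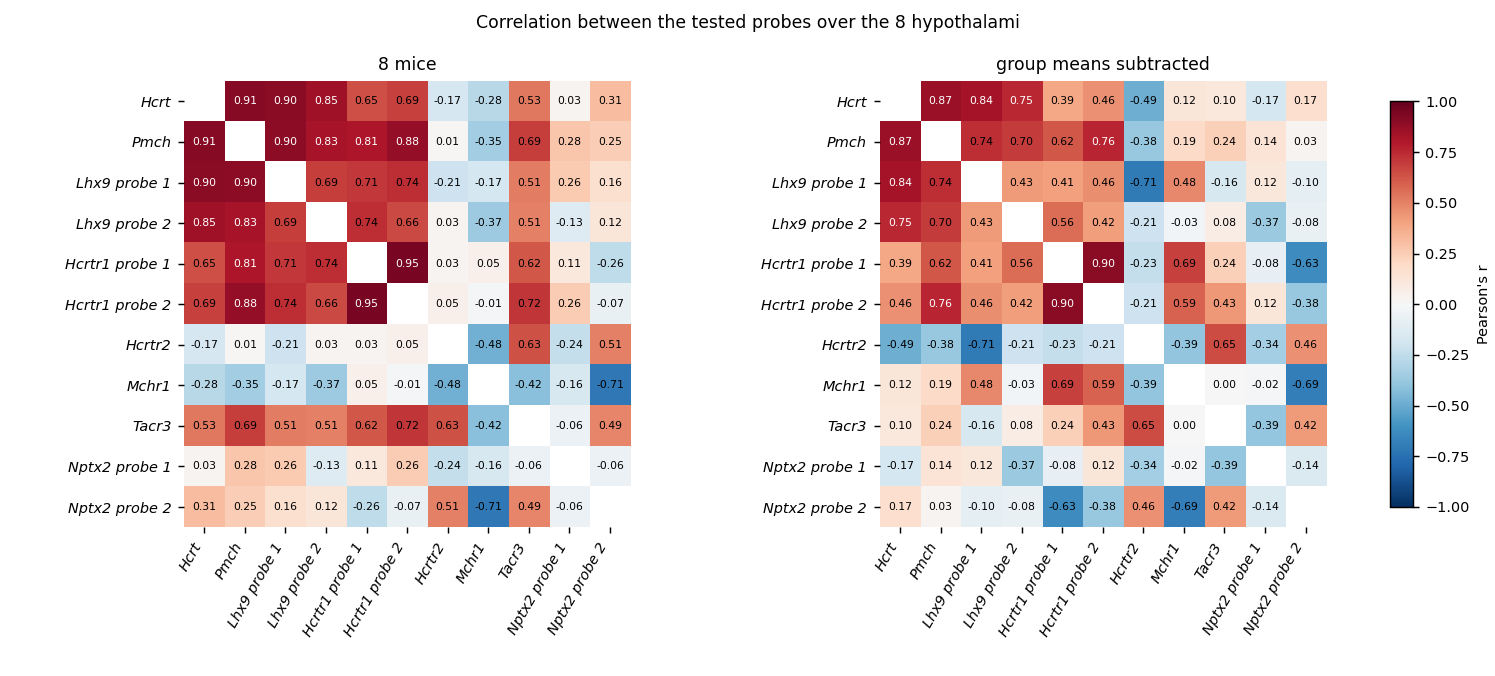
Pearson's r between each pair of the 11 tested probes over the 8 mice (left) and after the mean of each group was subtracted (right), from -1 in blue to 1 in red. The block of *Hcrt*, *Pmch* and *Lhx9* is at 0.69 to 0.91 on the left, and *Tacr3* with *Hcrt* goes from 0.53 to 0.10.

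The 10 genes whose levels were most like those of *Hcrt* over the 8 mice were all lower in MS mice on average, by differences of -1.21 to -0.11. Since they were picked for a high r with *Hcrt*, this direction follows from the choice. So do their low levels in MS 5.3 and MS 7.2 and their differences in row 1. Probes named only by a position or by their own ID were left out. In order, they were *Gm3143* (r = 0.98), *Slc32a1* (0.96), *Map3k10* (0.95), *Zic4* (0.95), *Cacng2* (0.94), *Dmkn* (0.94), *Col9a2* (0.94), *Zfp951* (0.93), *Crhr2* (0.93) and *Sp8* (0.93). *Slc32a1*, the vesicular transporter of GABA and glycine, was -1.55, -1.49, -1.61 and -1.60 in control mice 8.2, 8.4, 6.2 and 8.5, and -1.98, -1.84, -1.60 and -1.61 in MS mice 5.3, 7.2, 7.1 and 7.6. As for *Hcrt*, MS 5.3 and MS 7.2 were the lowest and the other MS mice were level with controls. *Zic4*, a zinc finger factor of the developing brain, was -3.41 and -3.22 in MS 5.3 and MS 7.2 and between -2.62 and -1.93 in the other mice. *Sp8*, a factor of interneuron development, had the same order of all 8 mice as *Hcrt* but was above background on 4 arrays only. *Crhr2* encodes the second receptor of the corticotropin-releasing hormone family, with a difference of -0.11 (SE 0.09) between groups. Over the 6 mice without MS 5.3 and MS 7.2, the 10 genes had r of 0.55 to 0.90 with *Hcrt*. All 10 were lower in MS mice in row 1, and 1 of 10 was lower in row 2. *Hcrt* was itself higher in MS mice in row 2, and the genes were picked over all 8 mice. Nothing is therefore read from these counts or from the r over 6 mice.

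Nearest to *Pmch* were *Slc16a14* (r = 0.98), *Frs3* (0.97), *Vax1* (0.96), *Gm9962* (0.96), *Rtf1* (0.95), *Map3k10* (0.95), *Ccdc33* (0.95), *Glra1* (0.94), *Slc14a2* (0.94) and *Radil* (0.94). *Slc16a14*, a member of the monocarboxylate transporter family, was -1.86, -1.85, -2.02 and -1.93 in control mice 8.2, 8.4, 6.2 and 8.5 and -2.19, -2.24, -1.92 and -2.19 in MS mice 5.3, 7.2, 7.1 and 7.6. MS 7.6 was low here, as it was for *Pmch*. *Vax1* is a homeobox gene of the ventral forebrain, and *Glra1* encodes a subunit of the glycine receptor. *Map3k10*, a mitogen-activated kinase kinase kinase, was the 1 gene in both lists of 10, and was -1.0 and -1.09 in MS 5.3 and MS 7.2 against -0.62 to -0.12 in the other mice. All 10 were lower in MS mice in row 1 and 8 of 10 in row 2. These genes were picked for a high r with *Pmch*, which was itself lower in MS mice in both rows, so nothing is read from these counts.

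The rest of the orexin and MCH systems was described with 9 lists of 71 genes, 66 of which were tested. By limma, 0 of the 66 passed (adjusted p of 0.989 or above), 6 were higher and 0 lower at an unadjusted p under 0.05 (1% and 2.4% of all tested probes), and 35 were lower and 31 higher in MS mice, with a median difference of -0.01. Genes that orexin neurons share with other cells did not go with *Hcrt*. Of the 8 tested genes of that list, 3 were higher and 5 lower in MS mice. Their mean had r = -0.27 with *Hcrt*, with the opioid gene *Pdyn* at r = -0.04. *Slc17a6*, the vesicular glutamate transporter of hypothalamic neurons, ran against *Hcrt* (r = -0.84), with 4.23 and 4.36 in MS 5.3 and MS 7.2 and 3.99 to 4.21 in the other mice. *Igfbp3*, with the smallest p among the lower genes of this list, had a difference of -0.20 (SE 0.18).

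For the listed genes that MCH neurons share with other cells, all 7 that were tested were lower on average in MS mice, with a median of -0.12 and none past the test. Their mean, in which genes of wide range such as *Zic1* weigh most, had r = 0.83 with *Hcrt* and 0.87 with *Pmch*. Of the 7 genes, only 2 had r over 0.7 with *Hcrt*. *Nrxn3*, a presynaptic neurexin, had the smallest p in the list and a difference of -0.13 (SE 0.07). *Gad2*, an enzyme of GABA synthesis, and *Zic1*, both named after their values were seen, had r of 0.84 and 0.88 with *Hcrt*. *Cartpt*, a peptide gene of many MCH neurons, did not follow it (r = -0.07).

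Of 10 other peptide and receptor genes of the lateral hypothalamus, 2 were higher and 8 lower in MS mice. With *Hcrt*, 4 of the 10 had r over 0.7 and the r of single genes ran from -0.78 to 0.92. The mean of the list, in which genes of wide range such as *Trh* weigh most, had r = 0.89 with *Hcrt* and 0.95 with *Pmch*. *Trh*, the gene of thyrotropin-releasing hormone, named after its values were seen, was 4.66, 4.73, 4.61 and 4.38 in control mice 8.2, 8.4, 6.2 and 8.5 and 3.51, 3.50, 4.89 and 4.03 in MS mice 5.3, 7.2, 7.1 and 7.6. MS 5.3 and MS 7.2 were the lowest and MS 7.1 the highest of all, and the difference of -0.61 (SE 0.29) was -1.19 in row 1 and -0.03 in row 2. *Crh*, the corticotropin-releasing hormone gene, had the smallest p among the lower genes, with a difference of -0.34 (SE 0.15) and r = 0.86. *Lepr*, the leptin receptor, had r = 0.90 but a difference of only -0.07 (SE 0.06). *Tac1*, the substance P gene, ran the other way (r = -0.78, difference 0.09), and all 3 tachykinin genes had means of 0.07 to 0.09 above those of control mice.

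Among the targets of orexin that promote waking, 5 of 8 genes were higher in MS mice, 3 of them at an unadjusted p under 0.05, against 1% of all tested probes, and 0 after adjustment. *Hrh1*, the histamine H1 receptor, was 1.97, 1.69, 1.73 and 1.85 in control mice 8.2, 8.4, 6.2 and 8.5 and 2.03, 2.00, 2.03 and 1.96 in the MS mice, with a difference of 0.19 (SE 0.07) that was 0.19 in row 1 and 0.20 in row 2. *Slc18a2*, the vesicular monoamine transporter, had r = -0.94 with *Hcrt* and was highest in MS 5.3 (2.51) and MS 7.2 (2.44), with 2.03 to 2.25 in the other mice. *Hdc*, the enzyme of histamine synthesis, had a difference of 0.21 (SE 0.09), and *Th*, the enzyme of dopamine synthesis, -0.04 (SE 0.10).

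The remaining lists held small differences. Of 10 tested transcription factors of the HT, 8 were higher in MS mice, led by *Foxb1*, a factor of the mammillary region, at 0.38 (SE 0.12), and *Meis2* was lower at -0.19 (SE 0.09). In receptor signaling, 5 genes were higher and 5 lower, and the sodium-calcium exchanger gene *Slc8a1* was -0.20 (SE 0.10) and the G protein gene *Gnai1* 0.10 (SE 0.05). Peptide processing, with 2 genes higher and 4 lower, gave -0.31 (SE 0.18) for *Chga* and 0.07 (SE 0.06) for *Cpe*. In the arcuate nucleus, 4 of 5 feeding peptides were higher, *Npy* by 0.19 (SE 0.07), and *Pomc* had a difference of -0.15 (SE 0.24).

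**Figure D5:**
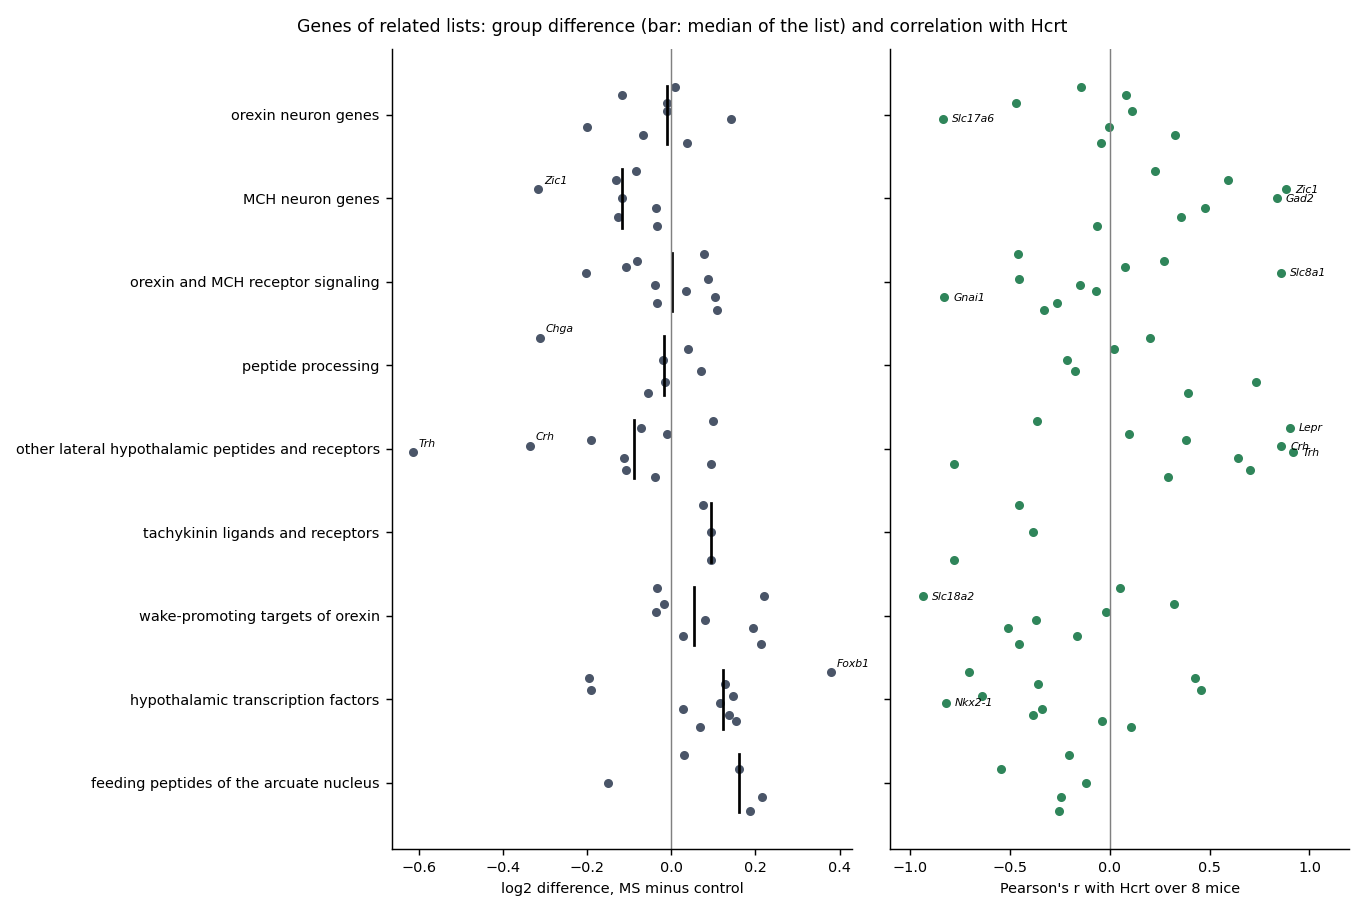
Genes of the 9 related lists (y axis), with the log2 difference between MS and control mice (left, bars at the median of the list) and Pearson's r with *Hcrt* over the 8 mice (right), 1 point per gene. *Trh* is at -0.61 and *Foxb1* at 0.38 on the left, and *Slc18a2* (-0.94) and *Trh* (0.92) mark the ends on the right.

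Markers of neighboring regions and other cell types were set beside *Hcrt* in the same way. For each list, the mean of its genes was taken after the mean of each gene over the 8 mice was subtracted, so that genes of wide range weigh most. Single markers are named after their values were seen. Some markers, among them *Hdc*, *Foxb1*, *Lhx1*, *Lhx6* and *Meis2*, are the same probes as in the related lists above. They are not separate observations. The 6 markers of the zona incerta and prethalamus, which border the lateral hypothalamus, had r = 0.74 with *Hcrt* and 0.84 with *Pmch*, and ranged from -0.07 to 0.19 in control and from -0.13 to 0.05 in MS mice. Of these genes, 2 had r over 0.7 with *Hcrt*, and the lowest was *Lhx6* at 0.11. The 6 markers of the mammillary and posterior hypothalamus ran the other way (r = -0.68 and -0.75), from -0.36 to 0.02 in control and from -0.21 to 0.32 in MS mice, with MS 5.3 and MS 7.2 highest, and all 6 genes had r between -0.71 and -0.38. The 5 markers of the suprachiasmatic nucleus had r = 0.58 with *Hcrt*, from -0.37 to 0.71 and from -0.48 to 0.09, and the single genes ran from -0.42 for *Prok2* to 0.76 for *Nms*. All of these markers were above background on all 8 arrays. The 5 general neuron markers had r = 0.14 with *Hcrt*, from -0.14 to 0.02 in control and from -0.02 to 0.10 in MS mice. Their mean was 0.01 in MS 5.3 and -0.02 in MS 7.2, the lowest of the MS mice, and control 8.5 was lowest of all (-0.14). Markers of all neurons could not register a change in a small minority of cells. The 6 astrocyte markers had r = -0.42 with *Hcrt* and -0.59 with *Pmch*, from -0.10 to -0.01 in control and from 0.02 to 0.06 in MS mice. These genes were split, and 3 of the 6 had r above 0 with *Hcrt*. They ran from -0.68 for *Aqp4* to 0.66 for *Slc1a2*, which was lower in MS mice (-0.09) while the other 5 were higher. The 10 HT markers had r = 0.55 with *Hcrt* and 0.61 with *Pmch*, and single genes ran from -0.82 to 0.92 with *Hcrt*. With *Hcrt*, r was 0.56 for microglia, 0.22 for oligodendrocytes, 0.28 for ependyma and tanycytes and 0.28 for the ventromedial nucleus. Single genes ran from -0.52 to 0.79 for ependyma and tanycytes and from -0.87 to 0.54 for the ventromedial nucleus. The r was 0.36 for the thalamus, 0.39 for the striatum, -0.38 for cortex, hippocampus and amygdala and 0.05 for the choroid plexus. Of the 4 tested cortex, hippocampus and amygdala markers, 1 was above background on all 8 arrays, and dim *Neurod6* ran from -7.46 to -3.54. In the choroid plexus 4 of 5 were, and in the thalamus 5 of 6. Blood markers, 3 of them tested, had r = 0.63, with ranges of -0.20 to 0.12 and -0.29 to 0.45. The part of the dissection, or of the other cell types, in the levels of *Hcrt* was not tested. Pituitary markers (r = 0.07) set control 6.2 apart, at 2.79 against -0.83 to 0.27 in the other mice, and without that mouse the difference in *Hcrt* was -1.59 and that in *Pmch* -0.50.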

How the data were processed

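The HT arrays of 8 male C3H/HeN mice were analysed, 4 per group, with groups and mouse numbers from the labels. The authors deposited scanner output in which each spot has an intensity, made with Agilent Feature Extraction 10.10.1.1, and a table of log2 values per probe, used as an alternative, whose normalization the sources used here do not give. The processed intensity is background-subtracted and corrected for gradients.

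From there, limma 3.58.1 was run in R 4.3.3, with files read by the package data.table (1.17.8). Control and outlier spots were left out, and the log2 processed intensity was averaged per probe (55681 probes from 59305 spots) minus the 75th percentile of the array. The 37313 probes that 4 or more of the 8 arrays measured well above background were fitted together with lmFit and eBayes and adjusted by Benjamini-Hochberg at 0.05. The number of arrays limits the precision. Correlations used 37295 tested probes with a value on every array other than the reference probe, which excludes 17 probes.

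The members, lists and tests were chosen with earlier results of these data known. Named are all member probes, from each list the gene of smallest p per direction (1 probe per gene, the brightest), and the 10 genes nearest to *Hcrt* and to *Pmch* by r. Alternatives were other scalings, normexp correction, filters, blocks, variance models, each slide row and each mouse left out. Gene names are those of the array files, with older symbols of listed genes matched through RefSeq. Promoters come from RefSeq, and sequences of proteins were not used here.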

Additional observations from a re-analysis of the deposited data

Results flagged for a closer look

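In 22 groups of 4 mice, 1 group per tested probe and condition, a single mouse was set against the others by the gap to its nearest neighbor over the range of the group. Chance flags about 1 in 20 groups. For *Mchr1*, control 6.2 stood above the other control mice, with a gap of 0.831 of the range. For the dim probe of *Nptx2*, MS 7.6 stood above the other MS mice after scaling, with a gap of 0.844. Before scaling, its signal of 17.9 was the lowest of the 4 MS mice, on the array with the lowest 75th percentile (499). No *Hcrt* or *Pmch* value was marked in this way, since the 4 MS mice split into pairs in *Hcrt*.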

How the results depend on the processing

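No paired analysis was possible because control and MS mice share no number in the labels. With the slide row as a block, 0 probes passed, as in the other settings except slide row 2 alone and a random block for the first part of the mouse number, with 1 probe each, neither of them of these genes. With mice left out in turn, the count of called probes of the 8 genes and that of the related lists stayed at 0 to 0, and the difference in *Hcrt* ranged from -1.88 to -1.05. The r of *Hcrt* with *Pmch* was 0.74 without the 2 mice farthest from the median, a setting of the main design that was added to the alternatives later, and 0.87 to 0.99 with each mouse left out. *Hcrt* changed sign in slide row 2 (0.20), where *Lhx9* probe 2 was 0.07; the cause was not tested. Of the other values, 29 moved by more than the spread between mice, or by 0.1 in r, and 259 did not. Dim probes such as those of *Lhx9* were limited by their signal over background.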
